A study of Rattus norvegicus with 16 samples.

Results

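The genes described here encode the proteasome, the protease that degrades ubiquitin-tagged proteins, and their RNA was measured in the left ventricle of rats bred for high or low running capacity. The set held every gene that is the only symbol of an array probe set and whose symbol begins with Psma, Psmb, Psmc, Psmd or Psme, without the immunoproteasome genes Psmb8, Psmb9 and Psmb10. This gave 38 genes on 52 probe sets, out of 14217 named genes and 31042 probe sets. Each gene was counted through its probe set of highest mean. Of the 38 genes, 13 encode subunits of the core particle, 17 subunits of the regulatory particle, 3 chaperones that assemble its base and 3 activators. The prefixes also brought in Psmc3ip and Psme3ip1, which encode binding partners of proteasome proteins and no subunit. Psmb6 and Psme3 were represented by probe sets with several symbols and lie outside the rule, as does a further probe set of Psma3. All 38 genes were matched by gene ID to the RefSeq gene table, where they lie on 16 chromosomes.

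The rats were females of about 7 months from generation 16 of 2 lines selected from the N:NIH stock by a treadmill test at about 11 weeks of age. High Capacity Runners are abbreviated HCR below, and Low Capacity Runners LCR. The 4 groups were HCR trained rats (rats 3, 4, 5 and 6), HCR sedentary rats (3, 4, 5 and 6), LCR trained rats (1, 2, 3 and 4) and LCR sedentary rats (2, 3, 5 and 6), with 1 Affymetrix RAE 230 2.0 array per rat. Trained rats ran uphill at 25 degrees for 1.5 hours a day, 5 days a week for 8 weeks, in bouts of 8 minutes of hard running and 2 minutes of easy running. A rat number is used here only as a name within its group, and values below follow the order of the numbers. The lines were selected on a trait and carry no engineered allele, so a line difference is not that of 1 gene. The arrays measured whole ventricle, in which fewer cells of a type and less RNA per cell cannot be told apart.

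The core particle is a barrel of alpha and beta rings whose proteolytic sites face inwards. The regulatory particle caps it: its base holds a ring of ATPases that unfold substrates, and its lid holds the enzyme that removes ubiquitin chains. In heart muscle the proteasome turns over sarcomeric and other proteins and clears damaged ones, and its activity is known to respond to load and to stress. Transcription of its subunit genes is known to be coordinated, in mammals through the factor encoded by Nfe2l1, which is made active when proteasome capacity is short.

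Values are the authors' RMA log values, taken as log2 because of their range, and a difference is HCR minus LCR, or trained minus sedentary, on that scale. A gene was called when its limma p, adjusted over all 31042 probe sets of a comparison, was 0.05 or less. Cardiomyocyte markers were bright on every array, from Ryr2 with a mean of 12.15 to Myl2 with 14.30, as the labelled tissue has them. The member genes had means of 6.50 to 12.46, all above the median of 5.90 over all probe sets. Because differences on these arrays varied with the level of a probe set, the 1203 named genes with a mean between 9.09 and 10.45, the quartiles of the member genes, are given beside them as genes of like level. Before any result, 1 array needs mention: HCR sedentary rat 5 read 3.76 to 4.94 on the 4 probe sets of Xist, the RNA of the inactive X chromosome, while the other 15 rats read 7.56 to 10.34. All rats are labelled female, and 4 probe sets of Y-linked genes read 3.53 to 6.15 in this rat, against 3.33 to 7.36 in the other 15. The member counts, medians and calls of the comparisons that use this array are also given without it, as are the related lists' calls.

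Most proteasome genes had a slightly lower mean in HCR than in LCR ventricles, in nearly every section of the complex, and 8 of them passed the test. Averaged over training, 37 of 38 genes had a lower mean in HCR (34 under quantile normalization), with a median difference of -0.17 and a range of -0.30 to 0.05. The exception was Psmd13, a lid subunit, at 0.05 ± 0.07 (SE, adjusted p = 0.677). The 8 called genes, all lower, were Psma1, Psmb3, Psmb4, Psmc2, Psmc6, Psmd9, Psmd11 and Psme2. That is 21.1% of the 38 genes, where 2.39% of all probe sets were called lower and 3.84% in either direction. At an unadjusted limma p under 0.05 the members numbered 26, or 68.4%, where 24.1% of all probe sets and 36.8% of the genes of like level reached it. Among the genes of like level 80.1% were lower, with a median of -0.07, and 6.73% were called lower. Over all named genes 52.1% were lower and the median was -0.00626.

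The count of called genes depended on single arrays and on the scaling, more than the direction did. It was 0 without LCR sedentary rat 6, and 1 without HCR sedentary rat 4, HCR sedentary rat 5, HCR trained rat 6 or LCR trained rat 3. It was 2 without HCR trained rat 5 or LCR sedentary rat 5, 3 without LCR trained rat 4, 4 without HCR sedentary rat 6 and 5 without LCR trained rat 1. It was 14 without HCR sedentary rat 3 and 20 without LCR trained rat 2. With any 1 array left out, at least 37 of the 38 genes stayed lower, and the median stayed between -0.20 and -0.13. Without HCR sedentary rat 5, the array with low Xist, 37 of 38 were lower, with a median of -0.16, and the called gene was Psmb3 (adjusted p = 0.0490). Quantile normalization of the summarised values left 0 genes called and 34 of 38 lower, with a median of -0.10, where genes of like level had a median of -0.00120.

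**Figure D1:**
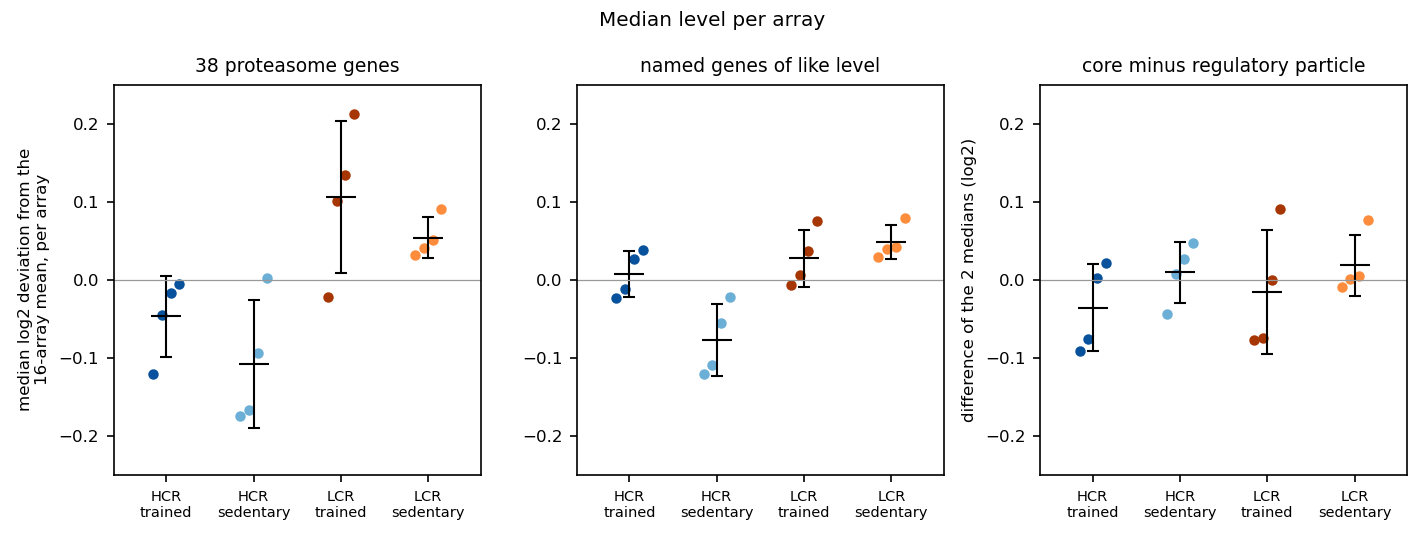
Median log2 deviation from the mean of all 16 arrays, 1 point per rat, for the 38 proteasome genes (left) and the 1203 named genes of like level (middle), and the core particle median minus the regulatory particle median (right). Bars are group means ± SD, n = 4 each. The proteasome medians lie between -0.17 and 0.00 in the 8 HCR rats and between -0.02 and 0.21 in the 8 LCR rats.

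The rat medians over the 38 genes do not rest on the call of any gene. As deviations from the mean of all 16 arrays they were -0.02, -0.01, -0.05 and -0.12 in HCR trained rats, against 0.13, -0.02, 0.21 and 0.10 in LCR trained rats. They were 0.00, -0.17, -0.17 and -0.09 in HCR sedentary rats, against 0.09, 0.04, 0.03 and 0.05 in LCR sedentary rats. LCR trained rat 2 lay with the HCR rats, and HCR sedentary rat 3 was the highest of the HCR rats. The genes of like level had medians of -0.02 to 0.04 in HCR trained rats, against -0.01 to 0.08 in LCR trained rats, so the trained lines overlapped there. They had -0.12 to -0.02 in HCR sedentary rats, against 0.03 to 0.08 in LCR sedentary rats, and these did not overlap.

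The 250 bases before the start of each member gene were read from the RefSeq promoter table (build GRCr8), which held 34 of the 38 genes. Psma7, Psmd6, Psmd12 and Psmd14 were not among them. The 6 motifs were searched on both strands, each on its own, so that matches of different motifs may overlap. The antioxidant response element TGACNNNGC, which Nfe2l1 protein and its relatives bind, occurred in 6 of the 34 promoters (17.6%), and in 10.2% of all 27457 promoters of the same length. CCAAT, the box bound by NF-Y, occurred in 18 (52.9%), against 34.3% of all promoters. CCGGAA, a core bound by ETS family factors, occurred in 17 (50%), against 13.4%. GGGCGG, a site of Sp1, occurred in 24 (70.6%), against 32.4%. CACGTG, the E-box, occurred in 5 (14.7%), against 5.79%, and the site of nuclear respiratory factor 1 (GCGC, A, any base, GCGC) in 4 (11.8%), against 4.17%. A match is a description of these letters and was not tested for binding. The promoters set beside the members were not matched to them in level or base content. The motifs were not tested against the line difference.

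The promoters of 4 genes with a called line difference are shown, to show 3 of the motifs in their place. The capitals mark TGACNNNGC in Psmd9 and Psme4, CCAAT in Psmb3 and CCGGAA in Psmc6, on either strand. In Psmd9 (chr12:39018265-39018514, minus strand) the matches lie at -124 to -116 and at -77 to -69 from the start, and in Psme4 (chr14:108706393-108706642, plus strand) at -55 to -47. In Psmb3 (chr10:83193537-83193786, plus strand) they lie at -65 to -61 and -24 to -20, and in Psmc6 (chr15:21022064-21022313, plus strand) at -69 to -64.
Psmd9: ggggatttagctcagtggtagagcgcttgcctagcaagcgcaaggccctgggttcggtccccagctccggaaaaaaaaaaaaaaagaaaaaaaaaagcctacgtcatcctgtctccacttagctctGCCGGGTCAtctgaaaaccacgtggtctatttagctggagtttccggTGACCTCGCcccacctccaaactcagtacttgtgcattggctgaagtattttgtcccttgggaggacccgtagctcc
Psme4: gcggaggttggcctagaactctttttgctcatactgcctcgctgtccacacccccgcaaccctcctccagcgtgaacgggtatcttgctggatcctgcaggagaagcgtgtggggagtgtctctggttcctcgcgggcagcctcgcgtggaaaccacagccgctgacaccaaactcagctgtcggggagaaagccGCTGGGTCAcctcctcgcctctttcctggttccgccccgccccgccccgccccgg
Psmb3: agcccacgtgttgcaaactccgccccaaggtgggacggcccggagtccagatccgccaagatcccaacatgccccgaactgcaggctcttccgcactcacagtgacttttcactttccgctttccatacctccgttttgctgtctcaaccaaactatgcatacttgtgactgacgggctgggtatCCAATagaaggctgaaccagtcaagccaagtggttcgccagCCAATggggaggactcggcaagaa
Psmc6: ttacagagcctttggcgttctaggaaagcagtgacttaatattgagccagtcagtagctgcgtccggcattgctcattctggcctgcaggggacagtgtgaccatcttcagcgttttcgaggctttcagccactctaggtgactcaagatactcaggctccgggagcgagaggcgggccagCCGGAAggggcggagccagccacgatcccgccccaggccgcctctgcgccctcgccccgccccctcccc

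In the alpha ring of the core particle, whose N-terminal tails gate the entry of substrates, all 7 genes had a lower mean in HCR averaged over training (6 of 7 under quantile normalization), with a median of -0.19, and Psma1 was called. Psma1 read 9.76, 9.74, 9.72 and 9.72 in HCR trained rats, against 10.02, 9.73, 9.95 and 9.84 in LCR trained rats. It read 9.87, 9.61, 9.62 and 9.67 in HCR sedentary rats, against 9.87, 9.94, 9.89 and 9.93 in LCR sedentary rats. In sedentary rats the lines did not overlap, though HCR rat 3 and LCR rat 2 were nearly level, and in trained rats LCR rat 2 lay within the HCR values. Averaged over training the difference was -0.18 ± 0.05 (SE, 8 rats per line, 1.14-fold lower, adjusted p = 0.0398), and the call held in 10 of 24 alternatives, left-out arrays included. Psma4 had the largest difference of the ring and was not called. It read 9.24, 9.12, 9.27 and 8.73 in HCR trained rats, against 9.60, 9.06, 9.55 and 9.27 in LCR trained rats. It read 9.21, 8.92, 8.96 and 9.04 in HCR sedentary rats, against 9.40, 9.24, 9.37 and 9.16 in LCR sedentary rats. HCR trained rat 6 was the lowest of all, and the lines overlapped in trained and in sedentary rats. For Psma4 the averaged difference was -0.27 ± 0.09 (adjusted p = 0.0831). The other alpha genes differed by -0.22 (Psma2), -0.21 (Psma5), -0.19 (Psma7), -0.11 (Psma6) and -0.04 (Psma3), none called.

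In the beta ring, which carries the proteolytic sites, all 6 genes had a lower mean in HCR, with a median of -0.13, and the structural subunits Psmb3 and Psmb4 were called. Psmb3 read 10.33, 10.22, 10.27 and 10.32 in HCR trained rats, against 10.67, 10.42, 10.52 and 10.37 in LCR trained rats. It read 10.31, 10.19, 10.24 and 10.37 in HCR sedentary rats, against 10.47, 10.55, 10.40 and 10.58 in LCR sedentary rats. It was the 1 member whose 8 HCR values all lay below its 8 LCR values, by less than the rounding shown, where 0.209% of all probe sets and 0.748% of the genes of like level had lines that did not overlap and were lower in HCR. The averaged difference was -0.22 ± 0.05 (1.16-fold lower, adjusted p = 0.0222), and the call held in 21 of 24 alternatives. Psmb4 read 10.75, 10.62, 10.70 and 10.57 in HCR trained rats, against 11.02, 10.70, 11.01 and 10.84 in LCR trained rats. It read 10.73, 10.68, 10.59 and 10.64 in HCR sedentary rats, against 10.86, 10.80, 10.87 and 10.88 in LCR sedentary rats. Only LCR trained rat 2 lay within the HCR values. The averaged difference of Psmb4 was -0.21 ± 0.05 (1.16-fold lower, adjusted p = 0.0266), and the call held in 18 of 24 alternatives.

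The catalytic subunits Psmb5 and Psmb7 were not called. Psmb5, which carries the chymotrypsin-like site, read 11.55, 11.42, 11.60 and 11.64 in HCR trained rats, against 11.65, 11.66, 11.60 and 11.56 in LCR trained rats. It read 11.50, 11.45, 11.64 and 11.63 in HCR sedentary rats, against 11.60, 11.68, 11.53 and 11.64 in LCR sedentary rats. The lines overlapped in both, and the averaged difference was -0.06 ± 0.04 (adjusted p = 0.373). Its 2 dimmer probe sets differed by 0.02 and 0.07, so the mean over its probe sets gave 0.0073, of the other sign. Psmb7, which carries the trypsin-like site, read 11.03, 10.93, 11.03 and 10.93 in HCR trained rats, against 11.18, 11.05, 11.23 and 11.08 in LCR trained rats. It read 11.05, 10.90, 10.96 and 11.02 in HCR sedentary rats, against 11.13, 11.16, 11.04 and 11.08 in LCR sedentary rats. The lines did not overlap in trained rats, while HCR sedentary rat 3 lay within the LCR values. The averaged difference of Psmb7 was -0.14 ± 0.04 (adjusted p = 0.0592). Psmb1 differed by -0.13 and Psmb2 by -0.08, neither called.

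**Figure D2:**
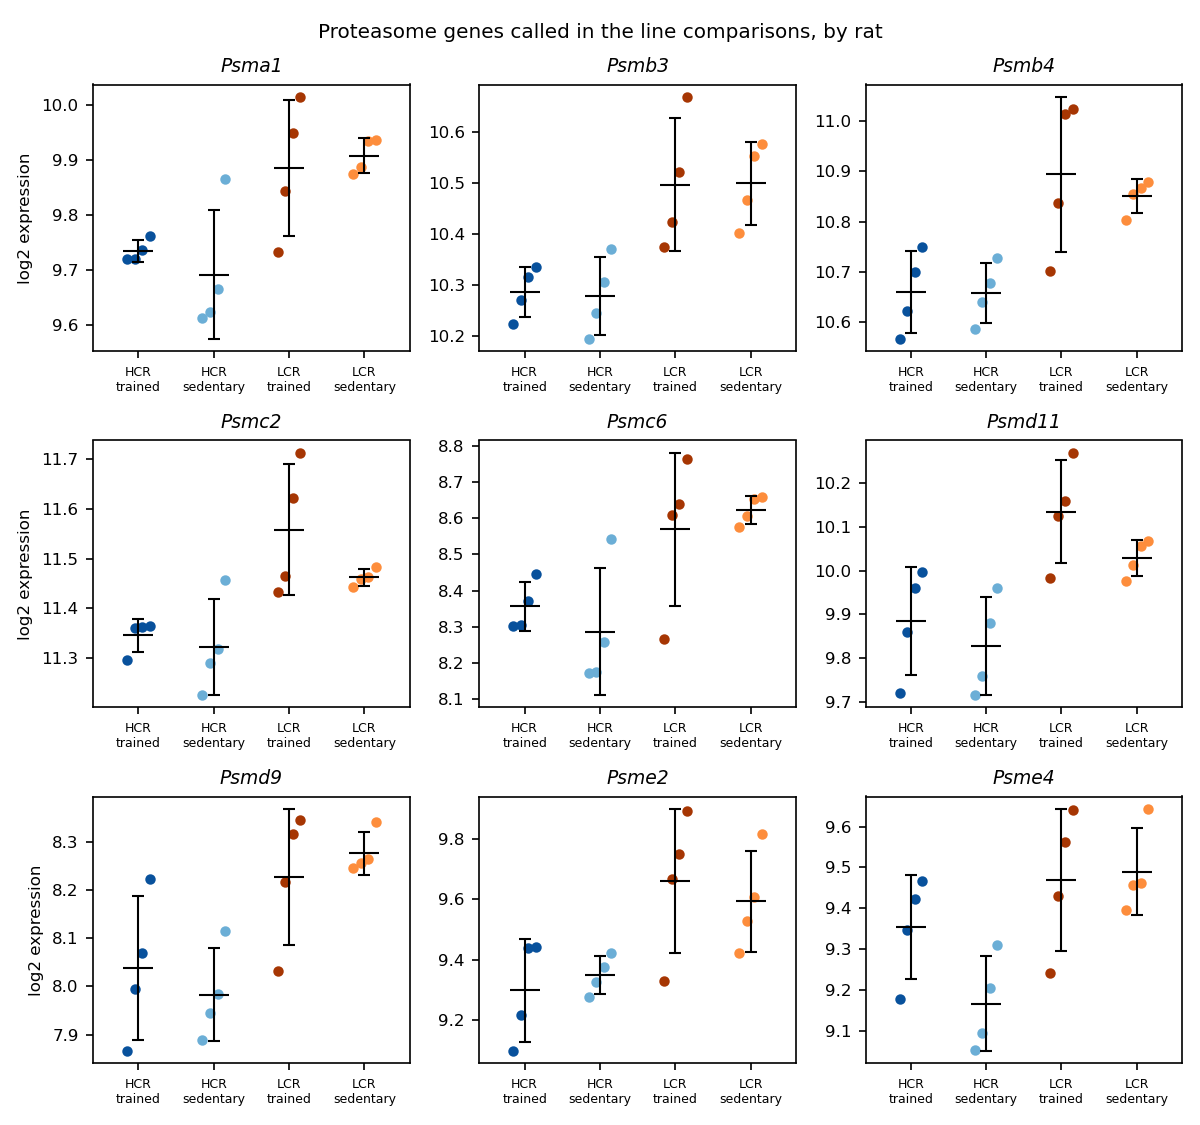
Log2 expression of the 9 proteasome genes called in a line comparison, 1 point per rat, with group means ± SD (n = 4 each) and a separate vertical scale for each gene that does not start at 0. In Psmb3 all 8 HCR rats lie below all 8 LCR rats. In Psma1, Psmb4, Psmc2, Psmc6, Psmd9, Psmd11 and Psme2 the lowest LCR trained rat, rat 2, lies among or below the HCR rats. In Psme4 the lowest LCR trained rat, rat 1, lies among them.

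The 6 ATPases of the base, Psmc1 to Psmc6, form the ring that unfolds substrates, and all had a lower mean in HCR, with differences of -0.28 to -0.15. Psmc2 read 11.36, 11.36, 11.36 and 11.30 in HCR trained rats, against 11.62, 11.43, 11.71 and 11.46 in LCR trained rats. It read 11.46, 11.32, 11.23 and 11.29 in HCR sedentary rats, against 11.44, 11.46, 11.46 and 11.48 in LCR sedentary rats. In trained rats the lines did not overlap, and in sedentary rats HCR rat 3 lay within the LCR values and the other HCR rats below them. For Psmc2 the averaged difference was -0.18 ± 0.05 (1.13-fold lower, adjusted p = 0.0426), called in 10 of 24 alternatives. Psmc6 read 8.30, 8.45, 8.37 and 8.30 in HCR trained rats, against 8.64, 8.27, 8.76 and 8.61 in LCR trained rats. It read 8.54, 8.17, 8.17 and 8.26 in HCR sedentary rats, against 8.66, 8.58, 8.65 and 8.61 in LCR sedentary rats. In sedentary rats the lines did not overlap, and in trained rats LCR rat 2 was below every HCR rat while the other LCR rats were above. For Psmc6 the averaged difference was -0.28 ± 0.07 (1.21-fold lower, adjusted p = 0.0356), called in 12 of 24 alternatives, and its dimmer probe sets differed by -0.22 and by -0.36 (adjusted p = 0.0135), the second called. Psmc4 read 9.97, 9.91, 9.89 and 9.70 in HCR trained rats, against 9.98, 9.94, 10.12 and 9.93 in LCR trained rats. It read 9.84, 9.67, 9.85 and 9.81 in HCR sedentary rats, against 9.95, 10.08, 9.85 and 10.03 in LCR sedentary rats. The trained lines overlapped and the sedentary lines did not, by less than the rounding shown, and the averaged difference was -0.15 ± 0.05 (adjusted p = 0.0833). Psmc1, Psmc3 and Psmc5 differed by -0.17, -0.16 and -0.21 without a call.

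Among the other base subunits, the scaffolds Psmd1 and Psmd2 differed by -0.19 ± 0.06 and -0.09 ± 0.05 (adjusted p = 0.0674 and 0.238). Psmd4, a receptor for ubiquitin chains, varied more between rats. It read 9.32, 9.36, 9.08 and 8.52 in HCR trained rats, against 9.43, 8.93, 9.63 and 9.16 in LCR trained rats. It read 9.20, 9.02, 8.74 and 8.73 in HCR sedentary rats, against 9.36, 9.05, 9.18 and 8.77 in LCR sedentary rats. The lines overlapped widely, and the difference of -0.19 ± 0.13 was not called (adjusted p = 0.382).

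In the lid 7 of 8 genes had a lower mean in HCR (6 under quantile normalization), with a median of -0.10, and Psmd11 was called. Psmd11 encodes the subunit that clamps the regulatory particle to the core. It read 9.96, 10.00, 9.86 and 9.72 in HCR trained rats, against 10.16, 9.98, 10.27 and 10.12 in LCR trained rats. It read 9.96, 9.72, 9.76 and 9.88 in HCR sedentary rats, against 10.07, 10.01, 9.98 and 10.06 in LCR sedentary rats. The sedentary lines did not overlap, and in trained rats LCR rat 2 lay within the HCR values. For Psmd11 the averaged difference was -0.23 ± 0.05 (1.17-fold lower, adjusted p = 0.0285), called in 14 of 24 alternatives, while a second bright probe set differed by -0.05 without a call. Psmd14, the enzyme that cuts ubiquitin chains off substrates, read 8.93, 9.23, 8.99 and 9.03 in HCR trained rats, against 9.23, 8.97, 9.33 and 9.20 in LCR trained rats. It read 9.14, 8.90, 8.83 and 8.92 in HCR sedentary rats, against 9.11, 9.23, 9.16 and 9.24 in LCR sedentary rats. In sedentary rats HCR rat 3 alone lay within the LCR values, and the trained lines overlapped through HCR rat 4 and LCR rat 2. Its averaged difference was -0.19 ± 0.06 (adjusted p = 0.0771). The other lid genes differed by -0.15 (Psmd6), -0.10 (Psmd7), -0.09 (Psmd3), -0.08 (Psmd12), -0.05 (Psmd8) and 0.05 (Psmd13), none called.

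The 3 chaperones that assemble the base, Psmd5, Psmd9 and Psmd10, differed by -0.24, -0.24 and -0.23. Psmd9, called in sedentary rats and averaged over training, read 8.22, 8.07, 7.87 and 7.99 in HCR trained rats, against 8.35, 8.03, 8.22 and 8.31 in LCR trained rats. It read 7.98, 7.94, 7.89 and 8.11 in HCR sedentary rats, against 8.26, 8.24, 8.26 and 8.34 in LCR sedentary rats. The sedentary lines did not overlap, whereas the trained lines did, through HCR rat 3 and LCR rat 2. The averaged difference of Psmd9 was -0.24 ± 0.06 (1.18-fold lower, adjusted p = 0.0299), called in 14 of 24 alternatives. Psmd10 just missed the threshold (adjusted p = 0.0516), and Psmd5 did not reach it either (0.0933).

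Of the activators, Psme1 and Psme2 encode the partners of the interferon-inducible cap that opens the core without ATP. Psme2 read 9.44, 9.22, 9.44 and 9.10 in HCR trained rats, against 9.67, 9.33, 9.75 and 9.89 in LCR trained rats. It read 9.42, 9.28, 9.37 and 9.32 in HCR sedentary rats, against 9.81, 9.42, 9.61 and 9.53 in LCR sedentary rats. The sedentary lines did not overlap, by less than the rounding shown, and in trained rats LCR rat 2 lay within the HCR values. For Psme2 the averaged difference was -0.30 ± 0.08 (1.23-fold lower, adjusted p = 0.0430), the largest of the 38 genes, and the call held in 10 of 24 alternatives. Psme1 read 12.44, 12.23, 12.48 and 12.39 in HCR trained rats, against 12.49, 12.46, 12.48 and 12.56 in LCR trained rats. It read 12.48, 12.41, 12.43 and 12.50 in HCR sedentary rats, against 12.50, 12.55, 12.46 and 12.55 in LCR sedentary rats. All of its values lay close together, and its difference of -0.09 ± 0.04 was not called (adjusted p = 0.195). With its dimmer probe set averaged in, Psme1 differed by 0.017. Psme4, an activator known for its role in histone degradation, had an averaged difference of -0.22 ± 0.06 (adjusted p = 0.0601), not called, and its values stand with the sedentary rats. The 2 genes that are no subunit, Psmc3ip and Psme3ip1, both differed by -0.06 without a call.

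**Figure D3:**
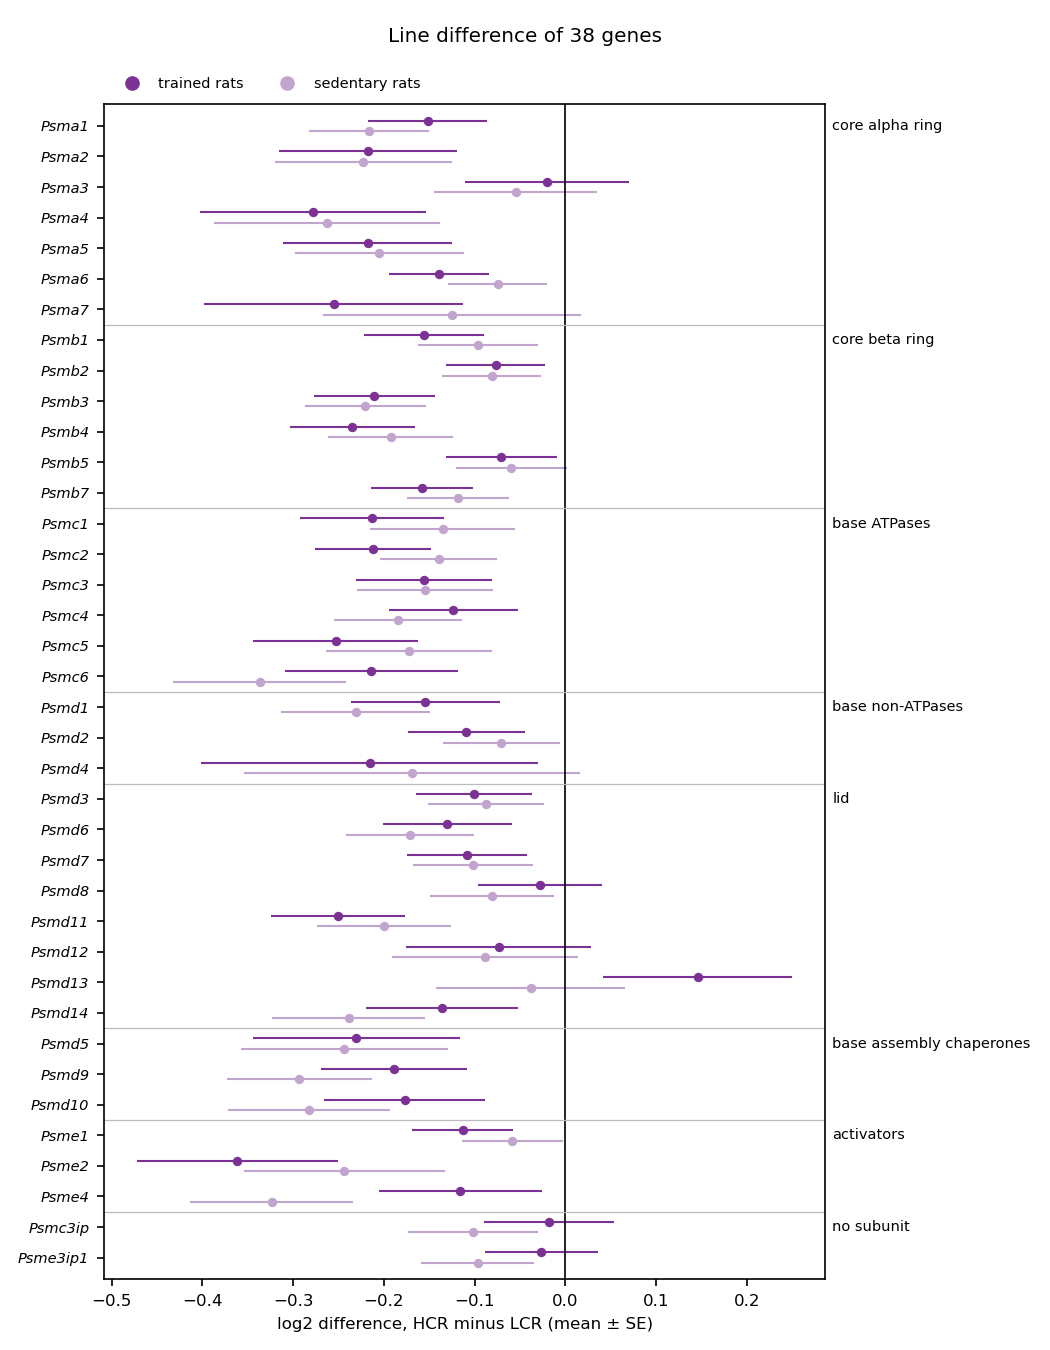
Line difference (HCR minus LCR, log2) of each of the 38 genes in trained and in sedentary rats, with SE from the limma fit, grouped by place in the complex. Psmd13 in trained rats is the 1 point to the right of 0, while under quantile normalization 10 of the 38 sedentary differences turn positive.

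In sedentary rats alone, which compare the lines without training, all 38 genes had a lower mean in HCR (28 under quantile normalization), with a median of -0.16 and a range of -0.34 to -0.04. Of them 2 were called, Psmd9 and Psme4 (5.26% of the members), where 2.98% of all probe sets were called lower, 4.99% in either direction, and 8.06% of the genes of like level. At an unadjusted p under 0.05 they numbered 17, or 44.7%, against 27.7% of all probe sets and 38.9% of the genes of like level. The lines did not overlap for 11 of 38 genes (28.9%), where 8.08% of all probe sets and 24.5% of the genes of like level did not overlap and were lower, so the members' share lay near that of genes of their level. Genes of like level were lower in 85.7% of cases with a median of -0.12. Psme4 read 9.31, 9.05, 9.10 and 9.21 in HCR sedentary rats, against 9.46, 9.46, 9.40 and 9.64 in LCR sedentary rats. HCR rat 3 was the highest HCR value, and the lines did not overlap. The difference of Psme4 was -0.32 ± 0.09 (1.25-fold lower, adjusted p = 0.0487), called in 12 of 25 alternatives, and its other probe sets differed by -0.34 and -0.27 without a call. Psmd9 differed by -0.29 ± 0.08 (1.23-fold lower, adjusted p = 0.0468), called in 12 of 25 alternatives. Psmc6 followed at -0.34 ± 0.10 (adjusted p = 0.0514).

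The sedentary calls were lost without HCR sedentary rat 4, 5 or 6, HCR trained rat 4, or any 1 of LCR sedentary rats 2, 3, 5 and 6. They numbered 1 without HCR trained rat 3 or LCR trained rat 3, and 5 without HCR sedentary rat 3 or LCR trained rat 2. Without HCR sedentary rat 5, the array with low Xist, 37 of 38 genes were lower, with a median of -0.12. Array by array, the interquartile range of all values was 1.97 to 2.10 in HCR sedentary rats, against 2.14 to 2.21 in LCR sedentary rats, and these ranges did not overlap. Quantile normalization, which equalizes this range, left 28 of 38 genes lower with a median of -0.063 and only 3 of the 8 lid genes lower, their median turning to 0.0235, while genes of like level had a median of -0.00818. Its part in the sedentary difference was not tested further.

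In trained rats, which ask whether the lines differ after the same training, 37 of 38 genes had a lower mean in HCR, with a median of -0.16, and 0 were called by limma. In this comparison 0.0515% of all probe sets were called lower and 0.0966% in either direction. An unadjusted p under 0.05 was found for 16 members (42.1%), against 7.33% of all probe sets and 12.1% of the genes of like level. Genes of like level were lower in 59.8% of cases, with a median of -0.02. The lines did not overlap for 3 genes (7.89%), Psmb3, Psmb7 and Psmc2, where 1.53% of all probe sets and 2.58% of the genes of like level did not overlap and were lower. The members of lowest p were Psmb4 (-0.23 ± 0.07, adjusted p = 0.364), Psmd11 (-0.25 ± 0.07, adjusted p = 0.371) and Psmc2 (-0.21 ± 0.06, adjusted p = 0.394). The largest difference was that of Psme2, -0.36 ± 0.11, and Psmd13 was the exception at 0.15 ± 0.10. Under quantile normalization 37 of 38 genes stayed lower, with a median of -0.13.

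The core and the regulatory particle had line differences of similar size, and the difference between them was not tested. Averaged over training the 13 core genes had a median difference of -0.18 and the 17 regulatory genes of -0.16, and 3 genes of each were called. In trained rats the medians were -0.16 for the core and -0.14 for the regulatory particle. In sedentary rats they were -0.12 for the core and -0.15 for the regulatory particle. Per rat, the core median minus the regulatory median was -0.08, -0.09, 0.02 and 0.00 in HCR trained rats, against 0.09, -0.08, -0.07 and 0.00 in LCR trained rats. It was -0.04, 0.03, 0.05 and 0.01 in HCR sedentary rats, against 0.00, 0.01, 0.08 and -0.01 in LCR sedentary rats. The 4 groups overlapped in this balance. With 1 array left out the difference between the particle medians took both signs, at -0.036 to 0.00067 averaged over training. Without HCR sedentary rat 5 the averaged medians were -0.17 for the core and -0.16 for the regulatory particle, and the sedentary medians -0.12 for the core and -0.11 for the regulatory particle.

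No proteasome gene passed the threshold for training. In HCR rats the trained mean was higher for 33 of 38 genes, with a median of 0.05, and 0 were called by limma, where 0% of all probe sets were called. None of the members had an unadjusted p under 0.05, where 13.9% of all probe sets and 16.9% of the genes of like level did. Genes of like level had a median of 0.08, and only 194 of these 1203 genes were lower in HCR trained rats, so a higher mean was common at this level. Quantile normalization turned the median of the members to -0.021, with 25 of 38 lower in trained rats. Without HCR sedentary rat 5, 28 of 38 were higher in HCR trained rats, with a median of 0.03. With 1 array left out the HCR median lay between 0.023, without HCR sedentary rat 4, and 0.094, without HCR sedentary rat 3, and it was 0.029 without HCR trained rat 3 and 0.086 without HCR trained rat 6. In LCR rats 28 of 38 were higher in trained rats, with a median of 0.04 and 0 called, where 0.00322% of all probe sets were called and 5.57% had an unadjusted p under 0.05, against 0 members. The LCR median was 0.00606 without LCR trained rat 3 and 0.098 without LCR trained rat 2, so its size rested on single arrays. Of the 1203 genes of like level 671 were lower in LCR trained rats, with a median of -0.01. Averaged over the lines 37 of 38 members were higher, Psme1 being the exception (25 under quantile normalization and 31 without HCR sedentary rat 5). Their median was 0.05 (0.027 without LCR trained rat 3), and 0 were called, where 0.00644% of all probe sets were. Among the 1203 genes of like level 372 were lower, with a median of 0.036, so part of this direction was shared at that level. An unadjusted p under 0.05 was reached by 2 members, the lid genes Psmd3 and Psmd7, and by 9.24% of all probe sets.

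Psmd3, a scaffold subunit of the lid, read 8.98, 8.96, 8.92 and 8.95 in HCR trained rats, against 8.94, 8.79, 8.85 and 8.80 in HCR sedentary rats. It read 8.96, 8.95, 9.20 and 9.10 in LCR trained rats, against 8.99, 8.98, 8.80 and 8.96 in LCR sedentary rats. HCR sedentary rat 3 and LCR sedentary rats 2, 3 and 6 lay among the trained values. The averaged training difference of Psmd3 was 0.11 ± 0.05 (adjusted p = 0.484). Psmd7, the inactive partner of Psmd14 in the lid, read 9.46, 9.44, 9.44 and 9.28 in HCR trained rats, against 9.40, 9.18, 9.22 and 9.36 in HCR sedentary rats. It read 9.44, 9.46, 9.66 and 9.49 in LCR trained rats, against 9.32, 9.42, 9.40 and 9.42 in LCR sedentary rats. In LCR rats every trained value lay above every sedentary value, the 1 member of which this held, where 1.32% of all probe sets did so. The averaged training difference of Psmd7 was 0.12 ± 0.05 (adjusted p = 0.484). Its dimmer probe set had means of 8.02 in HCR trained and 7.87 in HCR sedentary rats. In LCR rats its means were 8.38 trained and 8.11 sedentary, and its SDs within the groups were 0.39 to 0.68. In the averaged line comparison, a different one, the dimmer probe set differed by -0.30, against -0.10 for the brighter one.

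In HCR rats the member of lowest p for training was the activator Psme4. It read 9.35, 9.42, 9.18 and 9.47 in HCR trained rats, against 9.31, 9.05, 9.10 and 9.21 in HCR sedentary rats. It read 9.24, 9.43, 9.56 and 9.64 in LCR trained rats, against 9.46, 9.46, 9.40 and 9.64 in LCR sedentary rats. The training difference of Psme4 was 0.19 ± 0.09 in HCR rats (adjusted p = 0.367) and -0.02 ± 0.09 in LCR rats (adjusted p = 0.995). HCR trained rats 3, 4 and 6 lay above all 4 HCR sedentary rats, and HCR trained rat 5 lay among them. Psmd10 was the 1 member whose HCR trained values all lay above its HCR sedentary values, where 3.78% of all probe sets did so, with a difference of 0.12 ± 0.09 (adjusted p = 0.558). Psmb2, a beta subunit, had the next lowest p in the average over lines (0.07 ± 0.04, adjusted p = 0.596).

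**Figure D4:**
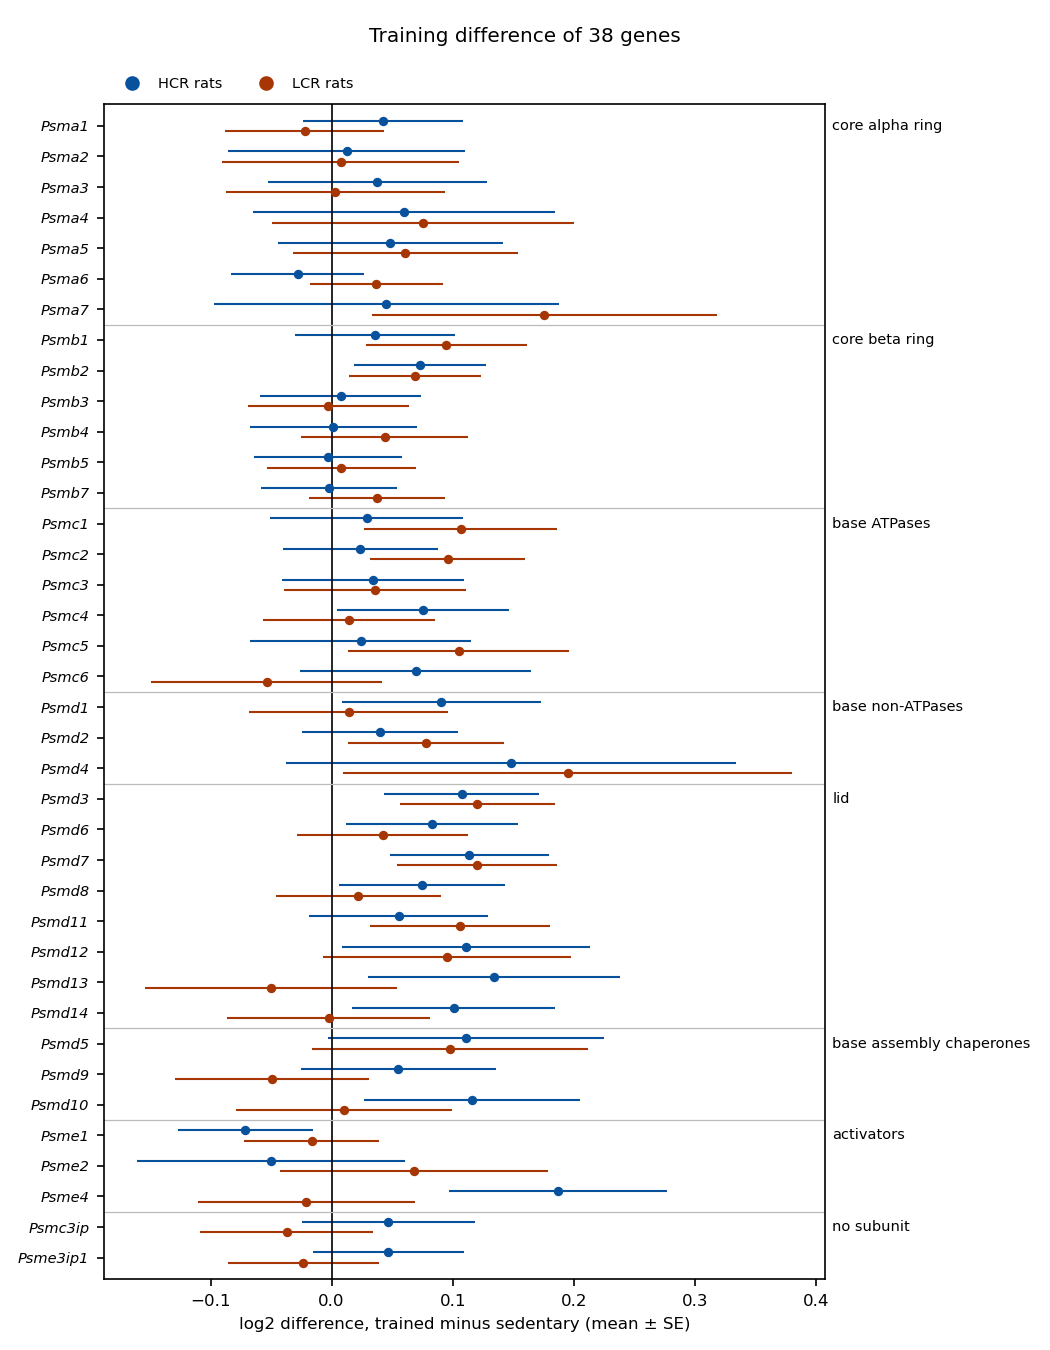
Training difference (trained minus sedentary, log2) of each of the 38 genes in HCR and in LCR rats, with SE from the limma fit, grouped by place in the complex. The points lie mostly to the right of 0, with bars that often reach it, and 0 genes were called in either line. Under quantile normalization the HCR median is -0.021.

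The training differences of the lines were also set against each other. The median of that difference over the 38 genes was 0.00134, with 19 genes on either side of 0 (29 above it with arrays centred on their medians, 7 under quantile normalization), and 0 genes were called by limma, where 0% of all probe sets were. No member had an unadjusted p under 0.05, against 9.88% of all probe sets. The median ranged from -0.037 to 0.043 with 1 array left out, and without HCR sedentary rat 5 it was -0.020, with 22 genes below 0. The largest was that of Psme4, 0.21 ± 0.13 (adjusted p = 0.578). Core and regulatory genes had training medians of 0.02 and 0.06 averaged over the lines.

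The genes also varied together between rats of 1 group. Over the 16 arrays, with each group's mean removed, pairs of members had a median correlation of 0.41, over 703 pairs. It was 0.49 among core genes, 0.56 among regulatory genes and 0.45 between the particles, and 0.11 among genes of like level. Psmd11 was closest to the others, with a median r of 0.69, followed by Psma2 (0.68), Psma5 (0.63), Psmc6 (0.63) and Psma4 (0.61). Psmb5 (-0.25), Psme3ip1 (-0.13), Psma3 (0.00), Psme1 (0.07) and Psme4 (0.09) were the least close. The medians without HCR sedentary rat 5 were 0.41 over all members, 0.48 among core genes, 0.55 among regulatory genes and 0.0992 among genes of like level. All pairs come from the same 16 arrays and share their normalization, so these correlations are a description.

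The immunoproteasome genes encode catalytic subunits that interferon induces and that replace those of the standard core. Averaged over training they showed larger line differences than any member gene, with a larger spread between rats. Psmb8 read 8.00, 7.43, 7.90 and 7.33 in HCR trained rats, against 8.20, 7.98, 8.27 and 9.31 in LCR trained rats. It read 7.84, 7.73, 7.84 and 7.57 in HCR sedentary rats, against 8.51, 7.76, 8.33 and 8.05 in LCR sedentary rats. In both LCR groups 3 of the 4 rats stood above all HCR rats, and LCR trained rat 4 was the highest. The averaged difference of Psmb8 was -0.60 ± 0.17 (adjusted p = 0.0538), that of Psmb9 -0.46 ± 0.17 (adjusted p = 0.113) and that of Psmb10 -0.35 ± 0.11 (adjusted p = 0.0699), none called. The groups of Psmb9 overlapped, and so did those of Psmb10 in trained rats.

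**Figure D5:**
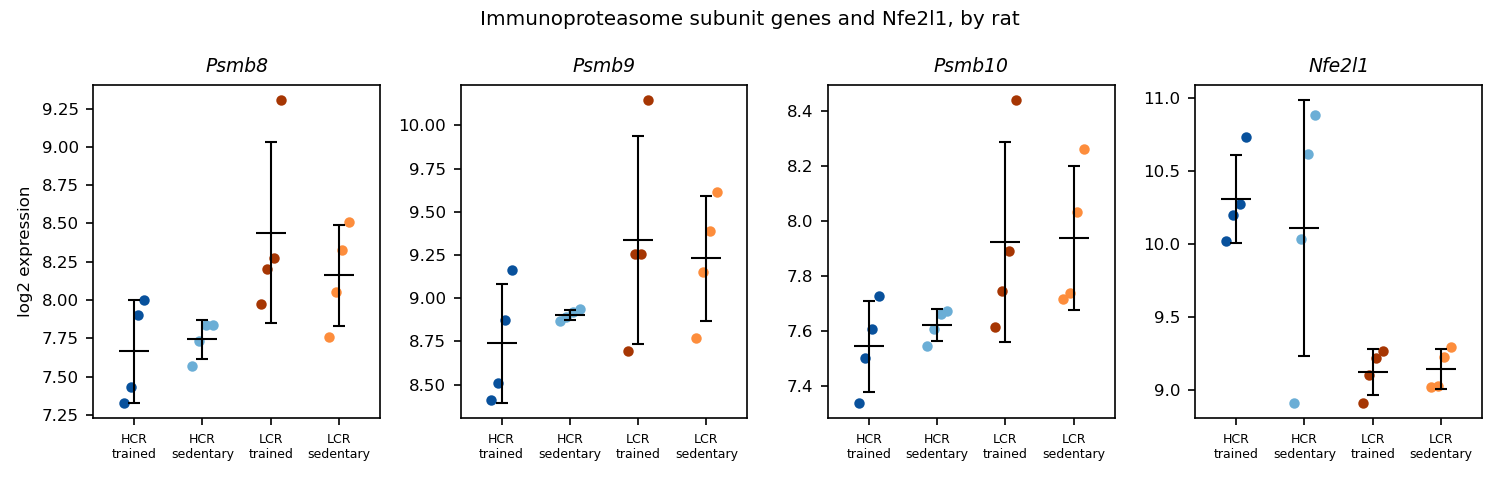
Log2 expression of the immunoproteasome genes Psmb8, Psmb9 and Psmb10 and of the transcription factor gene Nfe2l1, 1 point per rat, with group means ± SD (n = 4 each) and a separate vertical scale for each gene that does not start at 0. In Nfe2l1 7 of 8 HCR rats lie above all LCR rats, and HCR sedentary rat 4 lies at 8.91, level with the lowest LCR rat.

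Nfe2l1, the factor that raises transcription of proteasome genes when capacity is short, went the other way. It read 10.20, 10.28, 10.73 and 10.02 in HCR trained rats, against 9.27, 8.91, 9.22 and 9.10 in LCR trained rats. It read 10.89, 8.91, 10.62 and 10.03 in HCR sedentary rats, against 9.22, 9.02, 9.30 and 9.03 in LCR sedentary rats. In trained rats the lines did not overlap, and in sedentary rats HCR rat 4 lay below all LCR rats and the other HCR rats above them. The averaged difference of Nfe2l1 was 1.08 ± 0.21 (2.11-fold higher, adjusted p = 0.0127), and the call held in 24 of 24 alternatives, left-out arrays included. Its 2 dimmer probe sets differed by 0.43 (adjusted p = 0.106) and 0.18 (adjusted p = 0.252), neither called, and the mean over its 3 probe sets gave 0.56. It was 1 of 11 measured genes of transcription and processing of proteasome genes, of which 8 had a lower mean averaged over training (7 under quantile normalization), with a median of -0.11. Keap1, which holds the related factor Nfe2l2 in check, was called lower in sedentary HCR (-0.21 ± 0.06, adjusted p = 0.0473), and the call held in 10 of 25 alternatives. Its dimmer probe set differed by -0.10 there (limma adjusted p = 0.671), not called.

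Lists of other genes that work with the proteasome differed in how many had a lower mean in HCR. The share was 72.7% for the transcription and processing genes and 54.5% for the muscle ligases. Of all named genes, 7414 of 14217 were lower. Among the genes of like level 80.1% were lower and 6.73% were called lower. That band was set by the levels of the member genes, and most genes of these 2 lists lie outside it, so it is no measure for them. Of 13 measured genes of proteins that associate with the proteasome, all 13 had a lower mean averaged over training (10 under quantile normalization), with a median of -0.13, and 2 were called: Uchl5, a deubiquitinase bound to the regulatory particle (-0.27 ± 0.06, adjusted p = 0.0192), and Ubqln2, a shuttle for ubiquitinated proteins (-0.19 ± 0.05, adjusted p = 0.0379). The call of Uchl5 held in 24 of 24 alternatives and that of Ubqln2 in 11 of 24. The other probe sets of Ubqln2 went the other way, at 0.06 and 0.08 without a call, and the mean over its 3 probe sets gave -0.017. The 5 measured assembly chaperones of the core, Pomp and Psmg1 to Psmg4, had differences of -0.09 to -0.04 (3 of 5 lower under quantile normalization), with 0 called by limma and 1 at an unadjusted p under 0.05. Of 14 genes of ubiquitin and of Vcp, the segregase that extracts ubiquitinated proteins, 13 had a lower mean (11 under quantile normalization), with a median of -0.09. Ufd1, an adaptor of Vcp, read 9.78, 9.78, 9.62 and 9.70 in HCR trained rats, against 9.95, 9.81, 9.88 and 9.91 in LCR trained rats. It read 9.66, 9.53, 9.62 and 9.70 in HCR sedentary rats, against 9.88, 9.87, 9.85 and 9.95 in LCR sedentary rats. Its HCR values lay below its LCR values in every rat, and its difference was -0.22 ± 0.04 (adjusted p = 0.0102), and the call held in 24 of 24 alternatives. A dimmer probe set of Ufd1 differed by -0.16 (limma adjusted p = 0.254), without a call, and its lines overlapped. Stub1, a ubiquitin ligase that works with chaperones, was also called (-0.18 ± 0.05, adjusted p = 0.0498), and the call held in 7 of 24 alternatives. Of 11 measured genes of muscle ubiquitin ligases and their regulators 6 had a lower mean, with a median of -0.02. The ligase Trim63 was called averaged over training (-0.31 ± 0.08, adjusted p = 0.0432, held in 12 of 24 alternatives). It differed by -0.06 ± 0.11 in trained rats (adjusted p = 0.968), not called, and by -0.56 ± 0.11 in sedentary rats (adjusted p = 0.0233), called in 21 of 25 alternatives. The difference between the lines in its training difference was 0.50 ± 0.16 and was not called (adjusted p = 0.475). Foxo3, a factor that raises transcription of muscle ligases, was called lower in sedentary HCR (-0.32 ± 0.09, adjusted p = 0.0484), in 11 of 25 alternatives. Its 2 dimmer probe sets differed by 0.08 and 0.17 there without a call.

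Of these related genes Uchl5, Ufd1 and Stub1 were also called lower in sedentary rats, at -0.36 ± 0.08 (Uchl5), -0.26 ± 0.06 (Ufd1) and -0.28 ± 0.07 (Stub1), with adjusted p of 0.0295, 0.0261 and 0.0359 by limma. The dimmer probe set of Ufd1 differed by -0.16 there (limma adjusted p = 0.397), not called. Without HCR sedentary rat 5 the 6 sedentary calls, those of Uchl5, Ufd1, Stub1, Trim63, Foxo3 and Keap1, were lost, and averaged over training Nfe2l1, Uchl5 and Ufd1 stayed called while Ubqln2, Stub1 and Trim63 did not.

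Some lists of cell type markers moved with line, and the share of cell types in the proteasome differences was not tested. The 8 cardiomyocyte markers had a median line difference of -0.000245 averaged over training, with a range of -0.04 to 0.03, and 0 were called by limma and 0 were at an unadjusted p under 0.05. In sedentary rats all 6 fibroblast markers had a lower mean in HCR, also under quantile normalization, with a median of -0.37, and Lum was called. Leaving out HCR sedentary rat 5, their median there was -0.37, with all 6 lower and 0 called. Their level, as the median deviation per rat, was -0.23 to -0.07 in HCR sedentary rats, against 0.08 to 0.27 in LCR sedentary rats. In trained rats their median was -0.02, and their level was -0.19 to 0.18 in HCR trained rats, against -0.37 to 0.28 in LCR trained rats. All 5 smooth muscle and pericyte markers had a higher mean in HCR averaged over training (4 with arrays centred on their medians), with a median of 0.15 and Acta2 called. The 6 macrophage and 6 lymphocyte markers had medians of -0.03 and 0.01, with Klrd1 called lower and Cd79b called higher. The 4 endothelial, 5 adipocyte, 4 skeletal muscle, 4 atrial and 3 neuron and Schwann cell markers had medians of 0.06, 0.06, -0.03, 0.26 and 0.22, with Nppa, Tnnt3 and Chl1 called higher. Other members of these lists went the other way. The atrial Myl4 read 6.78 to 8.51 in HCR rats, against 7.24 to 9.37 in LCR rats. Ckm read 13.22 to 13.39 in HCR rats, against 13.37 to 13.45 in LCR rats. In sedentary rats 1 of 4 atrial and 2 of 4 skeletal muscle markers had a lower mean in HCR. Of the markers called averaged over training, only Tnnt3 was not called without HCR sedentary rat 5. The called Klrd1, Cd79b, Chl1 and Tnnt3 had means of 5.47, 5.78, 5.59 and 5.87, below the median of 5.90 over all probe sets. So had the skeletal muscle marker Myh4, at 4.20. Levels within a list differed widely: Ckm had 13.37 among the skeletal muscle markers, Fabp4 11.27 beside Adipoq at 5.41, and the atrial Nppa 11.53 beside Sln at 5.95. Whether a list median follows its cell type was not tested.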

How the data were processed

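RNA of 16 rats, 4 per group, was measured on 16 arrays. The deposited log2 values were made by the authors with RMA, which corrects the background of perfect-match probes, quantile-normalizes them and summarises each probe set, per the labels' design text. RMA and limma are also named, with no version, per the submitters' processing notes. No source used here states the logarithm's base, and with another base signs and tests would stand but folds would not. Since probes and not summaries were quantile-normalized, arrays can differ in the spread of their values. Their medians were 5.85 to 5.95, and pairs of arrays correlated at 0.984 to 0.995. Of 31099 probe sets 57 controls were left out and 31042 tested, with no filter on low signal. Symbols came from the platform's annotation table: 20826 probe sets had 1 symbol, 436 several, and 9780 were not listed there. Levels of different probe sets were not compared, and 4 arrays per group limit the precision.

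Each probe set was fitted in limma 3.58.1 (R 4.3.3) with 1 mean per group, no covariate and 12 residual degrees of freedom, and 7 comparisons were made from it. Tests were two-sided, with Benjamini-Hochberg adjustment over 31042 probe sets, and every adjusted p is from this limma fit. Errors are SE of the fitted difference. The fit was tested on simulated data.

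The member genes, the related gene lists, the cell type markers and the tests were chosen with earlier results of these data known. Genes are named with values if called, if among the 3 members of lowest p in a comparison, or if preset by role (Psma4, Psmb5, Psmb7, Psmc4, Psmd4, Psmd11, Psmd14, Psme1, Psme2 and Psme4). Other members are given by their difference. Of the related lists the text names the genes called in any comparison, the immunoproteasome genes and the core assembly chaperones. Alternatives tried were median centring, quantile normalization of the summarised values, a filter on dim probe sets, 1 probe set per gene, the mean over a gene's probe sets, calls by any probe set of a gene, an intensity trend, array weights, a fit of only the groups compared, the rat number as a block, and each array left out. The correlations without HCR sedentary rat 5 were added after seeing the data. Rat numbers name different animals in each group, which are separate animals per the sample titles.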

Additional observations from a re-analysis of the deposited data

Results flagged for a closer look

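In 128 sets of 4 rats, 1 rat stood apart from the other 3 by Dixon's criterion in 3 sets, where chance gives about 1 in 20. Psmc2 read 11.30 in HCR trained rat 6, below 11.36 in the other HCR trained rats. Psmd7 read 9.28 in the same rat, against 9.44 to 9.46 in the others of its group. The core median minus the regulatory median was 0.077 in LCR sedentary rat 5, against -0.0086 to 0.0052 in the other LCR sedentary rats. Leaving out HCR trained rat 6 left 1 member called in the line comparison averaged over training, against 8 with it, and leaving out LCR sedentary rat 5 left 2.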

How the results depend on the processing

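The number of proteasome genes called in sedentary rats was 2. It was 7 with arrays centred on their medians, 0 with quantile normalization of the summarised values, 0 with an intensity trend, 9 with array weights and 4 with only the groups compared, and 0 to 5 with 1 array left out. Averaged over training it was 8, and 14 with centring, 0 with quantile normalization, 15 with array weights and 0 to 20 with 1 array left out. In trained rats and in all training comparisons it stayed 0 under every alternative run.

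Same-numbered rats of different groups correlated in their deviations from the group means with a median r of 0.035 over 16 pairs (-0.23 to 0.34), against -0.0064 over 80 other pairs (-0.41 to 0.46). These correlations showed no clear pairing by number, but with so few pairs they cannot exclude one. With the rat number as a replicate block the count was 6 in sedentary rats and 5 averaged over training.

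The median line difference moved to -0.063 in sedentary rats and to -0.10 averaged over training under quantile normalization, and the median of the difference in training response to -0.076. Core minus regulatory was -0.011 in that difference (-0.070 to -0.0078 with 1 array left out), 0.030 in sedentary rats (-0.025 to 0.030), -0.022 in trained rats (-0.043 to 0.0061) and -0.029 averaged over training (-0.036 to 0.00067), so in the line comparisons it took both signs. With the mean over all probe sets of a gene, Psmb5 (0.0073) and Psme1 (0.017) turned sign in the averaged line comparison. The gene results under alternatives covered genes called and genes not called in the main fit. Of them 876 kept their direction and side of the threshold, uncalled ones that stayed uncalled included. This number is therefore no measure of how often a call held. A call was lost in 204 and gained in 40. The cause was not tested. The called members differed by less than 0.4, and 4 arrays per group limit the precision.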

Other observations

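The 9 members with several probe sets held 14 further ones. Of the 6 with a mean of 7 or more, all 6 were lower in HCR averaged over training, and of the 8 dimmer ones 2 were. The brighter ones were a second probe set of Psmc6 (-0.22), Psmd7 (-0.30), Psmd11 (-0.05) and Psmd14 (-0.20) and both further ones of Psme4 (-0.23 and -0.17). Among the dimmer ones a probe set of Psmc6 with a mean of 5.81 was called, at -0.40 in sedentary rats (adjusted p = 0.0372, limma) and -0.36 averaged over training (adjusted p = 0.0135, limma). Those of Psmb5, Psmc4, Psme1 and Psmd11 had differences of 0.02 to 0.12. In trained rats the further Psmd7 probe set differed by -0.36 and that of Psmd14 by -0.22.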
